A study of Homo sapiens with 4 samples.

Results

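The miR-15/16 family was examined in the miRNA sequencing data of U-251 cells, a human glioblastoma line. Its members were taken from the count table by name, as every entry for miR-15a, miR-15b, miR-16, miR-195, miR-424, miR-497 or miR-503, a rule that uses names alone. They were 7 of the 746 miRNA names listed. The data were 4 biological replicates in 1 group, wild-type cells without irradiation that carried no transgene or knockout by their labels. The labels give the vehicle DMSO as the treatment, while the study describes the sequenced cells as being at baseline. The labels also describe an mRNA library made on oligo-dT beads, whereas the methods name a small RNA library kit, and the table holds miRNA names only. No condition could be compared with another, so the family was described by its levels, their order and their spread over the 4 libraries.

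A miRNA guides an Argonaute protein such as AGO2 to messenger RNAs that pair with its seed, the bases from position 2 to position 8 counted from its 5′ end. The miR-15/16 family is known for targeting cell cycle genes, among them the cyclins CCND1 and CCNE1 and the kinases CDK6 and WEE1, and the survival gene BCL2. The hairpins of miR-15a and miR-16-1 lie in a region that is often deleted in chronic lymphocytic leukaemia, and the miR-424 and miR-503 pair is known to rise in differentiating cells that leave the cell cycle.

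The mature sequences are shown first because the seed is what joins the 7 names into a family. They were matched by name to RefSeq (GRCh38.p14), which held all 7, and the capitals mark positions 2 to 8.
miR-16-5p: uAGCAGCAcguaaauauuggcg
miR-195-5p: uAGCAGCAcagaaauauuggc
miR-15a-5p: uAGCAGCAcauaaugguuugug
miR-15b-5p: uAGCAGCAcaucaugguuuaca
miR-497-5p: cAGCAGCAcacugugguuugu
miR-424-5p: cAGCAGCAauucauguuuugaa
miR-503-5p: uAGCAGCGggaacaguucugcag

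The seed AGCAGCA was common to 6 members, and miR-503-5p alone carried AGCAGCG. All 7 shared positions 2 to 7. Of 2370 mature names in the RefSeq table, 9 had these letters at positions 2 to 7, and the 2 outside the family, miR-646 and miR-6838-5p, were not names of the count table. Compared base by base from the 5′ end, miR-16-5p and miR-195-5p were the closest pair, with 2 differences over 21 bases, G10A and U11G. The sequences of miR-15b-5p and miR-15a-5p differed at 4 of 22 bases (C12A, A20G, C21U and A22G), and miR-15a-5p and miR-497-5p at 4 of 21 bases (U1C, U11C, A12U and A13G). The most distant pair, miR-503-5p and miR-497-5p, differed at 11 of 21 bases.

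The 7 mature names arise from 8 hairpin genes in 4 loci, placed here on GRCh38 with GENCODE release 44. On chromosome 13, MIR15A (50049119 to 50049201) and MIR16-1 (50048973 to 50049061) lie on the minus strand within the long non-coding gene DLEU2, with 57 bases between them. The former overlaps an exon of a DLEU2 transcript and the latter is intronic. On chromosome 3, MIR15B (160404588 to 160404685) and MIR16-2 (160404745 to 160404825) lie on the plus strand in an intron of SMC4, which encodes a condensin subunit, 59 bases apart. On chromosome 17, MIR195 (7017615 to 7017701) and MIR497 (7017911 to 7018022) lie on the minus strand, 209 bases apart, and both are contained in exons of the non-coding gene MIR497HG. On chromosome X, MIR503 (134546328 to 134546398) and MIR424 (134546614 to 134546711) lie on the minus strand, 215 bases apart. MIR503 overlaps an exon of the non-coding gene MIR503HG, and MIR424 overlaps the start of that gene on this strand. Both miR-16 hairpins yield the same mature sequence, so the reads of miR-16-5p could not be divided between chromosomes 13 and 3.

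Each library held between 12363104 and 13214969 counts, and a blank cell was read as 0. No library repeated another, since the chi-square statistic over the 6 pairs was 549.9 to 3442 per degree of freedom. It was 1867 to 3442 for the pairs with replicate 1 and 549.9 to 1448 for the pairs without it. This statistic compares libraries with counting noise only, and that they are biological replicates rests on the labels. Of the miRNAs listed as typical of glioma cells or astrocytes, 4 of 4 had a value and together held 6.85% to 11.4% of the counts. Their shares were uneven, with means of 3.84% for miR-125b-5p, 3.07% for miR-21-5p, 1.39% for miR-9-5p and only 0.0435% for miR-10b-5p. Of 4 names listed for neurons, 2 were names of the table and 1 had a value, with a sum of at most 0.00181%. The usual neuronal arms miR-124-3p and miR-128-3p were not names of the table, so their levels were not read here. The table does hold miR-128-1-5p, noticed after the values were seen, with 0.202% ± 0.0400 (SD, n = 4) of the counts. Of 6 names listed for blood cells, 3 were names of the table and 2 had a value, with a sum of at most 0.0216%. Both miR-124-5p and the erythroid miR-451a were blank in every library.

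All 7 members had a value in every library, as did 41.4% of all names, and all 7 had at least 10 counts in every library, as did 37.5% of all names. Each was listed as the 5p arm, and the table held no 3p name of the family. Only 18 names of the whole table were of the 3p arm. The arm is therefore taken from the authors' naming, and which arm gave the reads was not tested. The family together held 3.85% ± 0.657 (SD, n = 4) of the counts. The share was 4.76% in replicate 1 (95% Wilson interval 4.75% to 4.77%) and 3.90% in replicate 2 (3.89% to 3.91%). It was 3.30% in replicate 3 (3.29% to 3.31%) and 3.44% in replicate 4 (3.43% to 3.45%). These intervals cover counting error only, so the spread between libraries was far wider than the counting error. Let-7 and miR-98 names held 62.6% of the counts on average, and with these left out of the denominator the share of the family was 10.3%.

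A pair of members made up nearly the whole family. The name miR-16-5p had 489192.5, 352132, 293820 and 303587 counts in replicates 1 to 4. Its level was 28306 ± 7256 CPM (reads per 1000000 counts of the library, SD, n = 4), it was the seventh of all names by summed count, and its rank in a single library lay between 6 and 9. Replicate 1 was the highest and the other 3 lay close together. Within the family, miR-16-5p took 72.8% ± 6.28 (SD, n = 4), from 68.3% in replicate 2 to 82.0% in replicate 1.

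The name miR-15b-5p, encoded beside MIR16-2, had 98665, 155081, 106940 and 128001 counts in replicates 1 to 4. Its level was 9573 ± 1699 CPM (SD, n = 4), at rank 15, with replicate 2 the highest and replicate 1 the lowest. It took 25.5% ± 6.19 (SD, n = 4) of the family. The other 5 members together took 1.67% ± 0.118 (SD, n = 4).

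The name miR-15a-5p, the paralogue of miR-15b-5p on chromosome 13, had 6224, 5970, 4778 and 5052 counts in replicates 1 to 4. Its level was 432.7 ± 51.2 CPM (SD, n = 4), at rank 90. Replicates 1 and 2 lay above replicates 3 and 4.

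The pair on chromosome X came next. For miR-503-5p, 1272, 1293, 1248 and 1159 counts were listed in replicates 1 to 4, a level of 97.8 ± 4.85 CPM (SD, n = 4) at rank 140. Its coefficient of variation of 4.96% was the lowest of the 7 members, and its highest library was 1.12 times its lowest. For miR-424-5p, 1075, 765, 899 and 775 counts were listed, a level of 69.3 ± 12.7 CPM (SD, n = 4) at rank 150. Its highest library was replicate 1 and its lowest was replicate 2, 1.48-fold apart.

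The pair on chromosome 17 was the lowest. For miR-497-5p, 306.5, 454, 289.5 and 498.5 counts were listed in replicates 1 to 4, a level of 30.3 ± 7.65 CPM (SD, n = 4) at rank 177, with replicates 2 and 4 above replicates 1 and 3. For miR-195-5p, 136, 69, 60 and 96 counts were listed, a level of 7.11 ± 2.76 CPM (SD, n = 4) at rank 234. Its highest library, replicate 1, was 2.23 times its lowest. At this depth counting error remained visible, since the 60 counts of replicate 3 gave a share of 0.000485% with a 95% Wilson interval from 0.000377% to 0.000625%. Both members of this pair stayed above the 3 counts that a count of 0 allows, which is 2.43e-05% of the smallest library.

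**Figure D1:**
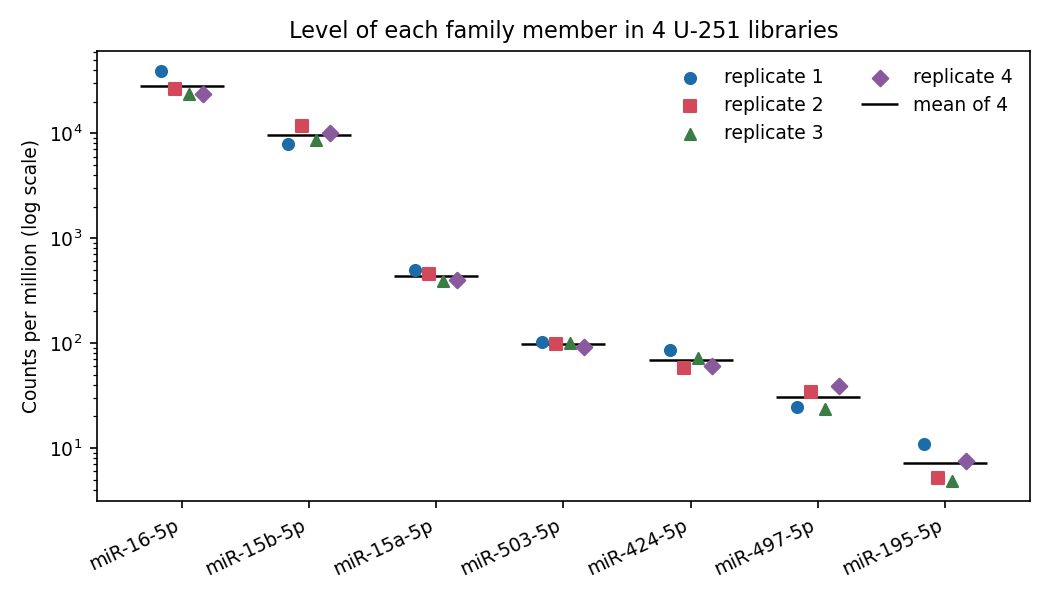
Level of each member in CPM (log axis) against member name, with a marker for each of the 4 replicates and a line at their mean. The levels run from 28306 CPM for miR-16-5p to 7.11 CPM for miR-195-5p, and the 4 markers of each member stand clear of those of its neighbours.

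The order of the members was the same in every library. From the highest it ran miR-16-5p, miR-15b-5p, miR-15a-5p, miR-503-5p, miR-424-5p, miR-497-5p and miR-195-5p, and the mean level of the first was 3980 times that of the last. For all 6 neighbouring pairs the ranges of CPM over the 4 libraries did not overlap. The closest pair was miR-503-5p, with 90.9 CPM in its lowest library, above miR-424-5p, with 85.7 CPM in its highest. Mature members are 21 to 23 bases long, and counts were not divided by length. The order is one of read counts, and whether the library preparation took up all sequences alike was not tested. The neighbours were set by the counts summed over these same libraries. A two-sided exact sign-flip permutation test over libraries gave p = 0.13 for each of the 6 pairs, also after Benjamini-Hochberg adjustment. This is the smallest p that 4 libraries allow, so the test cannot decide on the order.

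**Figure D2:**
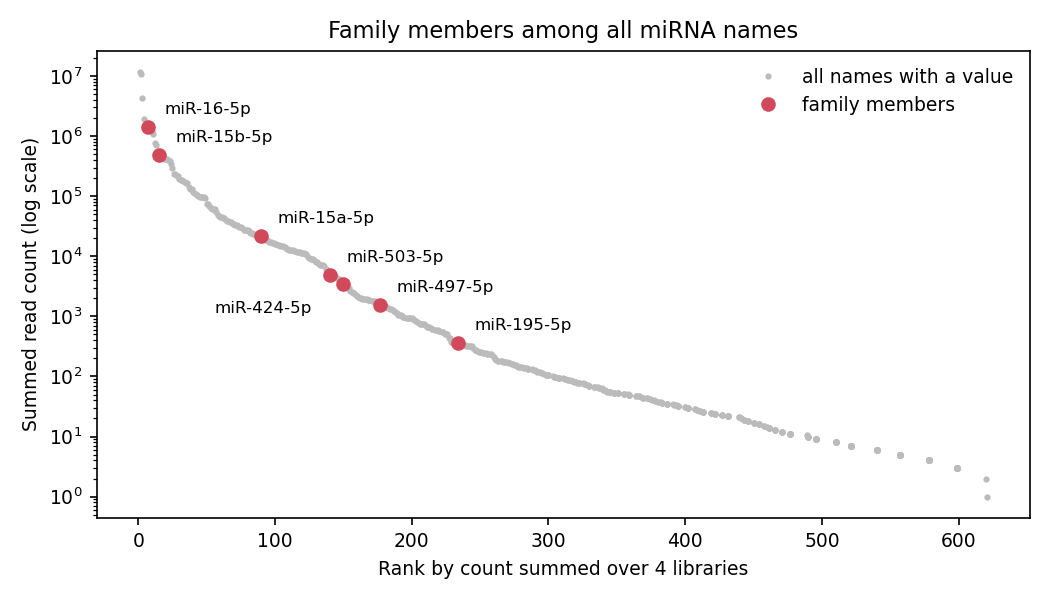
Count summed over the 4 libraries (log axis) against rank for the 621 names with a value, with the 7 family members marked. The members stand at ranks 7, 15, 90, 140, 150, 177 and 234.

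The paralogues miR-15b-5p and miR-15a-5p differed the most of these contrasts. The former was higher by a mean log2 ratio of 4.46 ± 0.33 (SD, n = 4), or 22.0-fold, with folds of 15.9, 26.0, 22.4 and 25.3 in replicates 1 to 4. It was higher in 4 of 4 libraries. Relative to miR-16-5p, the counts of miR-15a-5p and miR-15b-5p summed came to 21.4%, 45.7%, 38.02% and 43.8% in replicates 1 to 4, so the partners of both loci together stayed below miR-16-5p in each library. The log2 ratio of miR-16-5p to all other members was 1.45 ± 0.50 (SD, n = 4), with a fold of 4.54 in replicate 1 and of 2.15 to 2.57 in the others.

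Within the chromosome X pair, miR-503-5p exceeded miR-424-5p in 4 of 4 libraries. The folds were 1.18, 1.69, 1.39 and 1.495 in replicates 1 to 4, a mean log2 ratio of 0.51 ± 0.21 (SD, n = 4). Within the chromosome 17 pair, miR-497-5p exceeded miR-195-5p in 4 of 4 libraries, with folds of 2.25, 6.54, 4.79 and 5.17. The mean log2 ratio was 2.13 ± 0.67 (SD, n = 4). These folds were computed on log2(count + 0.5). The 4 ratios set out here each had p = 0.13 in the two-sided exact sign-flip permutation test, and 0.13 after Benjamini-Hochberg adjustment over the 4.

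The ratio between members of a locus spread least when replicate 1 was left out. The SD over libraries of the log2 ratio was taken for all 21 pairs of members. Among the 4 pairs that share a locus it was 0.19 for miR-16-5p with miR-15a-5p, 0.21 for miR-503-5p with miR-424-5p, 0.52 for miR-16-5p with miR-15b-5p and 0.67 for miR-497-5p with miR-195-5p. In order of steadiness among the 21 pairs these stood at places 2, 3, 16 and 20. The median was 0.37 over these 4 pairs and 0.43 over the other 17. Without replicate 1, a setting added after seeing the data, the SDs of the 4 pairs were 0.03, 0.14, 0.14 and 0.23. The medians were then 0.14 and 0.37. In the same order of pairs, the SDs were 0.21, 0.17, 0.56 and 0.66 without replicate 2. They were 0.23, 0.26, 0.63 and 0.81 without replicate 3, and 0.22, 0.26, 0.59 and 0.79 without replicate 4. Over all 4 libraries the steadiest ratio was that of miR-15a-5p to miR-503-5p, from different chromosomes, with an SD of 0.15. The 21 pairs share their libraries and members, and these values are a description without a test.

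**Figure D3:**
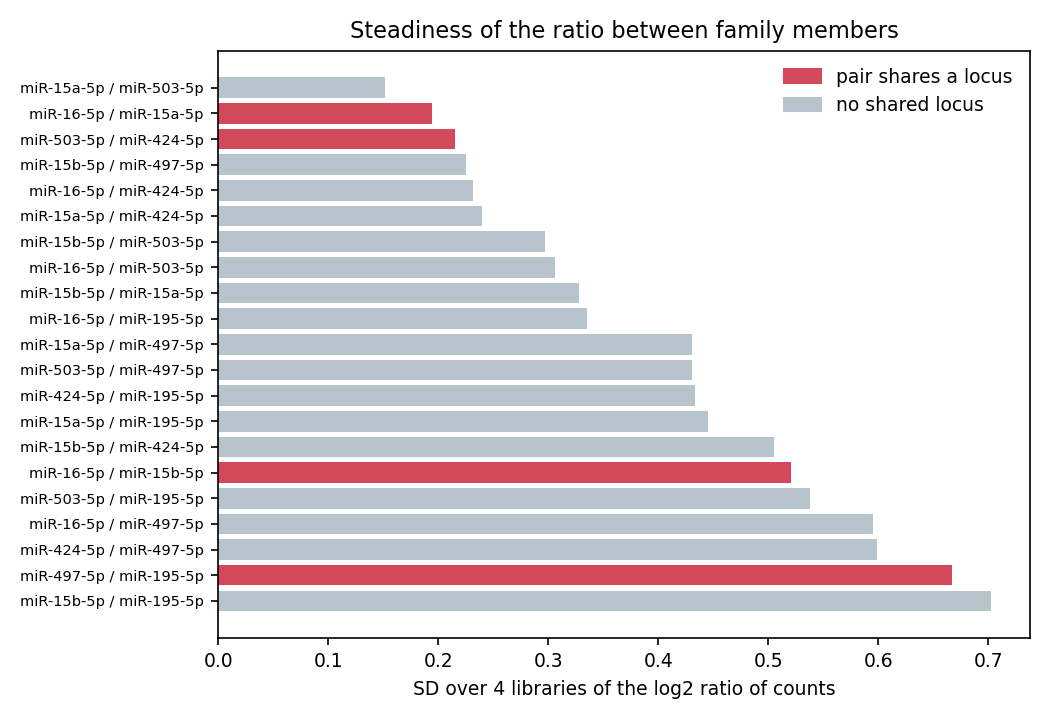
SD over the 4 libraries of the log2 ratio of counts (horizontal axis) for each of the 21 pairs of members, with pairs of a shared locus in red. The red bars lie at both ends of the range, from 0.19 to 0.67 with all 4 libraries.

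The ratio of miR-16-5p to miR-15b-5p, whose hairpins MIR16-2 and MIR15B are 59 bases apart, was 4.96 in replicate 1 against 2.27, 2.75 and 2.37 in replicates 2 to 4. Replicate 1 was thus the highest library for miR-16-5p and the lowest for miR-15b-5p. By contrast, the counts of miR-15a-5p as a percentage of those of miR-16-5p were 1.27, 1.70, 1.63 and 1.66 in replicates 1 to 4. The nearly identical miR-195-5p had counts of 0.0278%, 0.0196%, 0.0204% and 0.0316% of those of miR-16-5p. How the authors' counting assigned reads that could derive from either name was not tested.

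Several members were highest in replicate 1. Its log2 share exceeded the mean of the other 3 libraries by 0.66 for miR-16-5p, 0.27 for miR-15a-5p, 0.07 for miR-503-5p, 0.43 for miR-424-5p and 0.91 for miR-195-5p, and 5 of the 7 members were highest in this library. Over the 280 names with at least 10 counts in every library, 33.6% were highest in replicate 1 and 35.7% were lowest there. The median log2 excess of these names was -0.05, so replicate 1 was often the extreme library in both directions and not only for the family. The excess of miR-15b-5p was -0.36 and that of miR-497-5p was -0.37. Across 242 names with a RefSeq hairpin, the excess in replicate 1 had a Pearson's r of -0.376 with the GC content of the hairpin. For the excess in replicates 2, 3 and 4 it was 0.133, 0.131 and 0.315. The names share the libraries and are not independent. After a linear GC trend was removed in each library, a step added once the values had been seen, the excess was 0.38 for miR-16-5p, 0.07 for miR-15a-5p, 0.26 for miR-503-5p, 0.43 for miR-424-5p and 1.04 for miR-195-5p. That of miR-15b-5p was then -0.68 and that of miR-497-5p was -0.0037. Only the GC content of the hairpin was used, not that of the mature sequence. The part of GC content in the pattern was not tested.

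**Figure D4:**
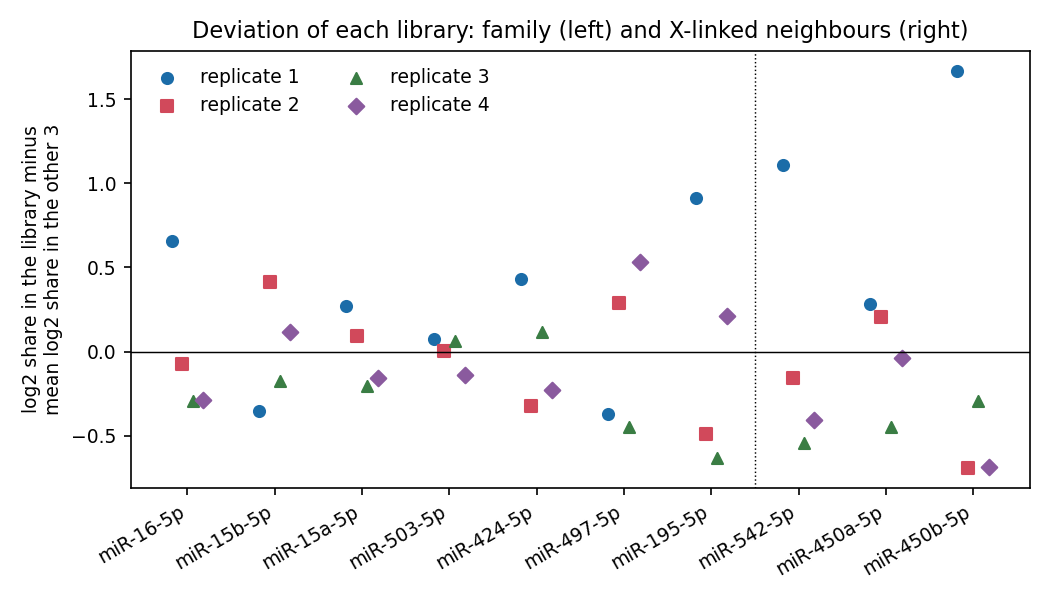
Log2 share in each library minus the mean log2 share in the other 3 (vertical axis), for the 7 members and, right of the dotted line, 3 neighbours of miR-424 and miR-503 on chromosome X. Replicate 1 lies highest for 5 members, up to 0.91 for miR-195-5p, and reaches 1.67 for miR-450b-5p.

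No member had a library that stood apart from the other 3 by Dixon's ratio at its 95% critical value for 4 samples, against 11.1% of the 280 names with at least 10 counts in every library. The ratio of miR-16-5p was 0.811, at replicate 1, just below this value. It was 0.854 with TMM factors and 0.837 with DESeq2 size factors, so that miR-16-5p passed under these scalings, as did 13.6% and 12.9% of the 280 names. With upper-quartile factors its ratio was 0.822 and it did not pass, whereas 14.3% of names did. With the GC trend removed its ratio was 0.658, and miR-15a-5p passed with 0.873, as did 13.2% of 242 names.

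The biological coefficient of variation, taken from the tagwise dispersion of edgeR, was 22.9% for miR-16-5p, 19.2% for miR-15b-5p, 19.5% for miR-15a-5p, 19.9% for miR-503-5p, 23.6% for miR-424-5p, 27.2% for miR-497-5p and 33.7% for miR-195-5p. These estimates are drawn toward those of other names of like abundance. The median of the 7 was 22.9%, beside 23.0% over all 280 names. It fell to 13.5% without replicate 1, when the median over all names was 15.9%. With the gene-wise dispersions of DESeq2, which are not drawn toward other names, the medians were 19.1% for the members and 18.2% over all names.

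The locus on chromosome X holds further hairpins downstream of MIR424 and MIR503 on the same strand, MIR542, MIR450A2, MIR450A1 and MIR450B, which ends the row 6351 bases beyond MIR424. These miRNAs do not share the seed. Of the names listed for them, 3 were in the table, all with at least 10 counts in every library. For miR-542-5p the counts were 1233, 672, 515 and 570 in replicates 1 to 4, a level of 58.9 ± 26.6 CPM (SD, n = 4). For miR-450a-5p they were 170, 172, 114.5 and 146.5, a level of 11.8 ± 1.92 CPM (SD, n = 4). For miR-450b-5p they were 298, 92, 106 and 89, a level of 11.6 ± 8.16 CPM (SD, n = 4), with replicate 1 far above the other libraries.

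Within the locus miR-503-5p was the highest of the 5 names in every library, and both miR-450 names were the lowest. In replicates 2, 3 and 4 the order was miR-503-5p, miR-424-5p, miR-542-5p, miR-450a-5p and miR-450b-5p. In replicate 1 miR-542-5p stood above miR-424-5p and miR-450b-5p above miR-450a-5p. The ratio of miR-542-5p to miR-503-5p was 0.97 in replicate 1 and 0.41 to 0.52 in the others (two-sided exact sign-flip permutation test over libraries, p = 0.13, adjusted p = 0.25 over 4 ratios). The ratio of miR-542-5p to miR-424-5p did not keep a direction, with the former higher in 1 of 4 libraries (exact p = 0.375, adjusted p = 0.5).

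**Figure D5:**
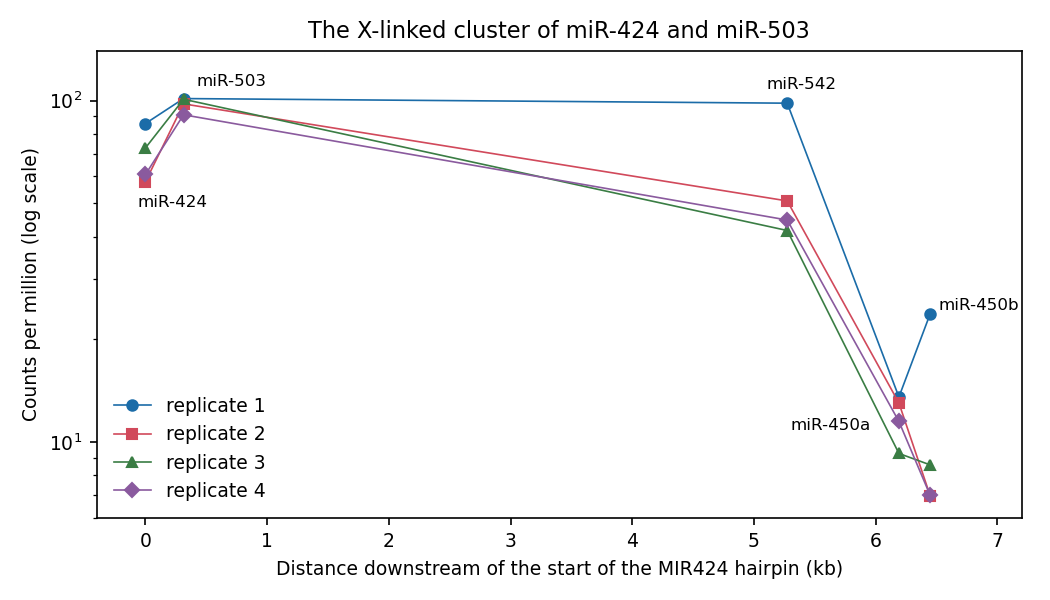
Level in CPM (log axis) of the 5 names of the chromosome X locus against the distance in kb downstream of the start of the MIR424 hairpin, with a line for each replicate. The line of replicate 1 stands above the others at miR-542-5p, with 98.3 CPM against 41.7 to 50.9, and at miR-450b-5p, with 23.8 CPM against 6.96 to 8.57.

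The names outside the family whose level followed miR-16-5p most closely were found by the SD of the log2 ratio over the 4 libraries, among 273 names with at least 10 counts in each. They were miR-130a-5p, miR-3164, miR-628-5p, miR-30e-5p and miR-146b-5p, with SDs of 0.03, 0.05, 0.05, 0.06 and 0.09, while the median of the 273 was 0.44. The level of miR-30e-5p was 0.143% ± 0.0317 (SD, n = 4) of the counts and that of miR-130a-5p was 0.0220% ± 0.00551 (SD, n = 4). The list rested on few libraries, since miR-130a-5p remained among the top 5 in 3 of the 4 repeats that left out 1 replicate, miR-3164 and miR-628-5p in 2, and the other 2 names in 1. Of the family itself, miR-15a-5p came closest to miR-16-5p, and 26 names outside the family had a smaller SD. For miR-15b-5p this number was 178.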

How the data were processed

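The authors converted base calls with bcl2fastq 2.20, trimmed adaptors with Trimmomatic, discarded long reads, aligned the remainder by Bowtie (hg38) and obtained counts from miRDeep2. They deposited unnormalized read counts, treated here as estimated counts because 40 names had values that were not whole. Among the members these were miR-16-5p in 1 library and miR-497-5p in 3. The step that gave such values and the miRNA annotation release are not given in the sources used here. All 4 columns matched a sample label, and nothing says more on the cultures than that they were biological replicates.

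The family and the lists were proposed with earlier results of these data known, although the rule that picks members uses names alone. Named miRNAs were all members, the miR-542 and miR-450 neighbours, names with the same bases 2 to 7 and miR-103a and miR-107, and the 5 names most like miR-16-5p. Counts were divided by library totals. Ratios used a pseudocount of 0.5, and exact permutation tests were run in Python 3.11.15 with numpy 2.4.6, pandas 2.3.3 and scipy 1.17.1. Dispersions came from edgeR 4.0.16 (intercept only, TMM, counts rounded) under R 4.3.3, over names with at least 10 counts in every library. DESeq2 1.42.0 served as an alternative, and matplotlib 3.10.9 drew the plots. Sequences came from RefSeq and hairpin positions from GENCODE release 44, on the build of the reads. RefSeq mature names matched 674 of 746 names. The steps were tested on simulated counts.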

Additional observations from a re-analysis of the deposited data

Results flagged for a closer look

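Of 22 results tested for a library far from the other 3, 3 passed Dixon's 95% critical value for 4 samples. Chance flags about 1 in 20 independent results, and 11.1% of the 280 names tested in the same way passed. The 22 were not independent, since 5 names were chosen for following miR-16-5p and the miR-103a names nearly repeat each other. The number that passed was therefore not weighed against chance. None of the 3 that passed was a family member. The distance of the extreme library from its nearest neighbour, relative to the whole range, was 0.838 for miR-542-5p, with 98.3 CPM in replicate 1 and 41.7 to 50.9 CPM in the others. For miR-450b-5p, from the same locus as miR-424 and miR-503, it was 0.904, with 23.8 CPM in replicate 1 and 6.96 to 8.57 CPM in the others. With the GC trend removed these ratios were 0.828, which no longer passed, and 0.851, which did. For miR-628-5p, a name chosen because it followed miR-16-5p, it was 0.935, with a share of 0.00374% in replicate 1, above the 0.00231% to 0.00240% of the remaining libraries. No explanation was tested.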

How the results depend on the processing

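The share of the family, 3.85%, was 10.3% without let-7 and miR-98 in the denominator, which lowers the denominator by construction. The shares of all 7 members moved by more than their SD under that setting and by less under the 5 others with all libraries (3 scalings, names with a value in every library, rounding). The part of miR-16-5p in the family, 72.8%, was 57.6% with counts divided by the number of hairpin genes, 2 for this name. Members with a library standing apart numbered 0, and 1 under TMM factors, under DESeq2 size factors and, chosen after seeing the data, with a GC trend removed, where 13.6%, 12.9% and 13.2% of all names tested passed. The cause was not tested. The median biological coefficient of variation of the members, 22.9%, was 53.2% without a filter on low counts, where names with blanks enter the fit. The median over all 621 names in that fit was 136%.

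With each replicate left out in turn, the values were 3.55% to 4.04% for the family and 69.8% to 74.4% for the part of miR-16-5p. Each time 7 members were detected and 6 neighbouring pairs had one order. The median biological coefficient of variation of the members ranged from 13.5% to 25.01%. The log2 ratios ranged from 4.38 to 4.62 for miR-15b-5p to miR-15a-5p, from -0.60 to -0.43 for miR-424-5p to miR-503-5p, from -2.45 to -1.93 for miR-195-5p to miR-497-5p and from 1.21 to 1.57 for miR-16-5p to the rest, and pseudocounts of 1 and 5 kept their directions. With 10 CPM as the minimum in every library, 6 members were detected. No paired comparison between groups was possible because all libraries belong to a single group, while the ratios of members were taken within each library. The exact test over 4 libraries cannot give less than p = 0.13, so the order of members rests on the ranges of their values.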

Other observations

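The related miR-103a and miR-107 carry the shared core of the family 1 position nearer the 5′ end, so their positions 2 to 8, in capitals, read differently. They are shown because they resemble the family and yet have another seed.
miR-103a-3p: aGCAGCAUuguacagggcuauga
miR-107: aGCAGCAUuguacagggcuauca

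The table lists miR-103a under the names miR-103a-1-5p and miR-103a-2-5p. Their levels were 8163 ± 815.6 CPM and 8206 ± 822.5 CPM (SD, n = 4), near that of miR-15b-5p, and replicate 2 was the highest for both. The level of miR-107 was 855.5 ± 114.6 CPM (SD, n = 4). The ratio of the counts of miR-103a-1-5p to those of miR-103a-2-5p lay between 0.994 and 0.995 in the 4 libraries. In RefSeq these names have 2 distinct sequences, while miR-103a-3p has 1 sequence from both hairpins and is not a name of the table. Which arm gave the counts was not tested. For miR-497-5p, which has 1 hairpin gene in RefSeq, values were not whole in 3 of 4 libraries, and the source of the fractions was not tested.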
